A study of Mus musculus with 61 samples.

Results

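The cytosolic ribosomal protein genes were followed one by one in single cells of the postnatal mouse ovary. Members were the table rows whose symbol has the Rpl or Rps number pattern, together with Rpsa, Rplp0, Rplp1 and Rplp2, without Rps6 kinase genes and without rows marked as pseudogenes by "-ps" in their symbol. The rule found 89 of 23927 rows, of which 53 belong to the large subunit (Rpl and Rplp) and 36 to the small subunit (Rps and Rpsa). GENCODE M21 nevertheless annotates 6 of them as pseudogenes, namely Rpl32l, Rpl6l, Rps12l1, Rps3a2, Rps3a3 and Rps4l.

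The cells came from ovaries of wild-type CD-1 mice, an outbred stock, at postnatal day 5. They were taken 6 h after an intraperitoneal injection of solvent in the control groups, or of doxorubicin in the treated groups. Doxorubicin, a chemotherapy agent, causes breaks in DNA. The table held 16 control oocytes, 16 doxorubicin oocytes, 16 control granulosa cells and 13 doxorubicin granulosa cells, all labelled as 1 batch. Oocytes are the female germ cells and granulosa cells are the somatic cells around them. Each library was 1 cell, and no animal or litter was named, so each group was counted as 1 sample and no difference was tested.

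Each cytosolic ribosome is built from a large and a small subunit, in which one copy of nearly every ribosomal protein is bound to ribosomal RNA. The genes are expressed in all cells and their transcripts are usually kept in balance. Many of these mRNAs start with a C followed by a run of pyrimidines, the terminal oligopyrimidine motif, through which growth signals control their translation. Genomes also hold many processed copies of ribosomal protein mRNAs, and a few copies, such as Rpl10l and Rpl39l, encode proteins used in germ cells. Growing oocytes store ribosomes for the early embryo.

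Sequences of 2 kinds bear on the values. The first is the coding sequence shared by a member and its copies, taken from GENCODE M21 transcripts, which use the mm10 genome build (GRCm38) that the submitters' processing notes name. Rpl26 (chromosome 11, 68901583 to 68906989, plus strand) and the processed pseudogene Gm15772 (chromosome 5, 3236431 to 3236868, plus strand) were identical at 433 of 435 coding bases. The differences were C177T and T288C, with the base of Rpl26 first, the position counted from 1 at the first base of the start codon, and the base of Gm15772 last. The longest stretch without a difference was 176 bases. Coding bases 121 to 180 are shown, with the difference in capitals, because coding reads that miss such a position are the same for both rows.
Rpl26: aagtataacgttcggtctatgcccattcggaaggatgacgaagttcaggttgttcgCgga
Gm15772: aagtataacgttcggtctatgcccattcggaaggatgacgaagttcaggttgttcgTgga

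Rps3a1 (chromosome 3, 86137940 to 86142702, minus strand) and its copy Rps3a2 (chromosome 14, 88123017 to 88123808, minus strand) differed at 4 of 792 coding bases, and Rps3a1 and Rps3a3 (chromosome 13, 108670603 to 108671397, plus strand) at 9. Coding bases 612 to 671 hold 2 of the 4 differences between Rps3a1 and Rps3a2.
Rps3a1: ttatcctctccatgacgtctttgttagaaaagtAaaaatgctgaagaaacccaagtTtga
Rps3a2: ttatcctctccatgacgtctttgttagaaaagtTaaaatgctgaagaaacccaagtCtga

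Rps4l and Rps27l differ from their parent genes at many more positions. Rps4l (chromosome 6, 148354656 to 148355598, plus strand) shared 79.6% of the coding bases of Rps4x, with no identical stretch longer than 35 bases. Rps27l (chromosome 9, 66946086 to 66949516, plus strand) shared 76.2% with Rps27, with no identical stretch longer than 11 bases. The first 60 coding bases of both pairs are shown, with differences in capitals.
Rps4x: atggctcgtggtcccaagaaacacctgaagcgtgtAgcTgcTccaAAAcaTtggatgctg
Rps4l: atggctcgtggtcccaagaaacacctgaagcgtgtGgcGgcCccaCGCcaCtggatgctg
Rps27: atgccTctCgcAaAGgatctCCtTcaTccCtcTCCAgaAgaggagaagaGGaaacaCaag
Rps27l: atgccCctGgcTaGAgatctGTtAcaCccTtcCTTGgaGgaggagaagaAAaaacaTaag

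The second kind is the start of the mRNA, from RefSeq (GRCm38.p6). A C at the annotated first base followed by at least 4 pyrimidines (C or T, on the gene's strand) was counted at any annotated start of a gene. It was found in 14 of the 64 members with a start in the table, or 21.88%, and in 3.01% of 27025 genes. Among members other than copies it was found in 13 of 57, or 22.81%. Of the stretches below, 10 bases lie before the annotated start and 20 after it, and the longest run that begins with C at most 10 bases from the start is in capitals. Where a gene has several annotated starts, the start with the longest run at its first base is shown. Rpl15 (chr14:18270967-18270996, minus strand), Rps6 (chr4:86857348-86857377, minus strand) and Rps27 (chr3:90213629-90213658, minus strand) are shown as members with the motif, and Rps27l (chr9:66946076-66946105, plus strand) as a paralog without it at the start.
Rpl15: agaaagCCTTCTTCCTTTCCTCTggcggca
Rps6: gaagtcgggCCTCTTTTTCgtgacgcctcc
Rps27: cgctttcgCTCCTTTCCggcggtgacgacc
Rps27l: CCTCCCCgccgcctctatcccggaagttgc
For Rpl26 and Rpl9 no such run of 5 or more bases was found within 10 bases of the start. A match is a description of these letters at an annotated start, not of a site in use.

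Values are counts scaled to the library total (CPM, the usual per-library scale) for a group, from counts summed over its cells, unless a cell is named. Differences are log2 ratios of these CPM. A group under 3 counts was set to 3 counts. Brackets hold 95% intervals, which cover counting error only, because reads copied by PCR and carrying no molecular identifier do not each stand for 1 molecule. The cells held between 6834594 and 31262609 counts each. A gene entered a comparison with at least 5 CPM in either group. A member is said to depart from the family where its log2 ratio lay at least 1 from the family median, both over all cells and after leaving out each cell in turn.

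The labels were checked against marker genes. The 19 oocyte markers summed to between 18340 and 65521 CPM in every oocyte, and all were counted in both oocyte groups. The 19 granulosa markers summed to between 514.25 and 14152 CPM in control granulosa cells and to between 746.64 and 10887 CPM in doxorubicin granulosa cells. The libraries labelled as granulosa cells also held oocyte markers, with a median of 1706 CPM and a highest value of 17346 CPM in the control group, and a median of 9200 CPM and a highest value of 45818 CPM after doxorubicin. Oocyte markers exceeded granulosa markers in 6 of 16 control and 8 of 13 doxorubicin granulosa libraries. The sum of stromal markers reached 13316 CPM in 1 control granulosa library, and that of blood markers reached 33378 CPM in doxorubicin granulosa cell 15. Results are therefore also given for marker-selected cells. These are the oocytes with under 200 CPM of granulosa markers and of stroma markers (9 control, 9 doxorubicin) and the granulosa libraries whose granulosa markers reach 5000 CPM (8 control, 5 doxorubicin). The selection does not limit oocyte, stromal or blood markers in granulosa libraries. Doxorubicin granulosa cell 7, which was kept, had 13961 CPM of oocyte markers. Doxorubicin granulosa cell 15, with the 33378 CPM of blood markers, was also kept, at 8482 CPM of granulosa markers.

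Control oocytes gave a smaller share of their counts to ribosomal proteins than control granulosa cells did. The 89 rows together took 1.70% to 3.27% of the counts of a control oocyte, with a median of 2.17%. In control granulosa cells the lowest share was 2.09%, the median 4.24% and the highest 6.63%, so the ranges overlapped. In sums of this kind, fewer transcripts of a gene and more transcripts of others cannot be told apart, because all values are shares of a total. The median log2 ratio of oocytes over granulosa cells was -0.94 for 88 members tested, with quartiles of -1.23 and -0.66, beside -0.03 for all 12373 genes tested, with quartiles of -1.44 and 1.26. Of the 88, 85 were lower and 3 higher in oocytes, while 49.3% of all genes tested lay above 0. Of all genes tested, 30.6% were at least 1 lower than the median of all genes, and 40 of 88 members were. With any 1 cell left out as well these were 22.2% of genes and 30 members. In the other direction 29.7% of genes and 3 members were at least 1 higher, and 27.1% of genes and the same count of members with any 1 cell left out. Large-subunit members had a median of -0.93 and small-subunit members one of -0.99. The family median was -0.996 in marker-selected cells and -0.84 without control granulosa cell 8, which had the highest share of its group and 17346 CPM of oocyte markers. Without the 6 control granulosa libraries whose oocyte markers exceeded their granulosa markers it was -0.73.

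**Figure D1:**
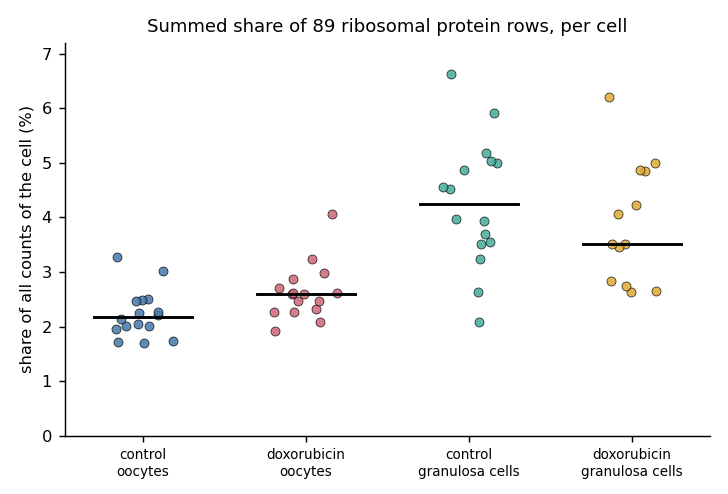
Share of all counts of each cell (y axis, percent) taken by the 89 ribosomal protein rows, in 16 control oocytes, 16 doxorubicin oocytes, 16 control granulosa cells and 13 doxorubicin granulosa cells; each point is 1 cell and bars are medians. The medians are 2.17%, 2.60%, 4.24% and 3.52%, and all 4 ranges overlap.

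For 7 members every control oocyte lay below every control granulosa cell, namely Rpl10, Rpl27a, Rpl3, Rpl9, Rps16, Rps19 and Rps9; over all genes tested the same held for 0.453%. No member had every oocyte above every granulosa cell, which held for 3.25% of all genes. Rpl3, a protein that reaches the catalytic centre of the large subunit, lay between 125.97 and 297.35 CPM in control oocytes (median 175.73) and between 412.52 and 1803 CPM in control granulosa cells (median 909.19). Rpl9, a large-subunit protein, lay between 78.98 and 219.09 CPM in control oocytes (median 118.39) and between 569.42 and 1773 CPM in control granulosa cells (median 698.71). These were also among the members that departed downward, with log2 ratios of -2.27 (-2.29 to -2.26) for Rpl3 and -2.49 (-2.51 to -2.48) for Rpl9. The third was Rpl22l1, a paralog of the RNA-binding protein Rpl22, at 19.5 CPM in control oocytes and 102.84 CPM in control granulosa cells, a log2 ratio of -2.40 (-2.45 to -2.35). Its cells ranged from 9.14 to 40.98 CPM (median 16.04) and from 39.09 to 279.65 CPM (median 89.65), and 15 of 16 control oocytes lay below the lowest granulosa cell. Rpl22 itself was also lower, by 1.63 on the log2 scale, from 93.92 to 30.27 CPM, but did not depart.

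The 3 members that were higher in oocytes were all paralogs of X-linked ribosomal protein genes, and all 3 departed. Rps4l, an intronless copy of Rps4x that GENCODE annotates as a transcribed processed pseudogene, was counted at 701.27 to 1351 CPM in every control oocyte (median 981.41). In control granulosa cells it ranged from 0.43 to 1658 CPM (median 195.57). The groups overlapped, with 953.27 CPM in oocytes and 349.02 CPM in granulosa cells and a log2 ratio of 1.45 (1.44 to 1.46). The highest granulosa library was cell 8, and the ratio was 1.87 without it. Per kilobase of transcript, Rps4l was among the highest of the 89 members in control oocytes. It was at 1101 CPM per kilobase with 866 bases, the median of its annotated transcripts, and at 1011 with the 943 bases of the processed copy, beside 1031 for Rpl13. At 866 bases it ranked 46 in control granulosa cells. Control granulosa cell 5, with the lowest summed oocyte markers of its group (447.0 CPM), had 464.0 CPM of Rps4l. Rps4l made up 67.2% of the counts of Rps4l and Rps4x in control oocytes (59.3% to 78.8% over the cells) and 30.2% in control granulosa cells (0.06% to 62.9%).

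Rpl10l, a copy of Rpl10 known for its role in male meiosis, lay between 43.67 and 169.13 CPM in control oocytes (median 67.81). It was at 115.48 CPM in control granulosa cell 8 and 88.44 CPM in cell 10, and under 1 CPM in the other 14. The log2 ratio was 2.57 (2.51 to 2.63), and 3.55 without cell 8. Rpl10l made up 16.3% of the counts of Rpl10l and Rpl10 in control oocytes and 1.42% in control granulosa cells. Rpl39l, a copy of Rpl39 known from spermatogenesis, lay between 16.23 and 63.93 CPM in control oocytes (median 29.75) and reached 1 CPM in 4 control granulosa cells, the highest at 32.44 CPM. Its log2 ratio was 2.43 (2.34 to 2.52), and its share of Rpl39l and Rpl39 was 31.7% in control oocytes and 4.32% in control granulosa cells. In marker-selected cells, the ratios of Rps4l and Rpl39l were 1.62 and 2.89.

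Their X-linked counterparts went with the rest of the family. The 4 X-linked members, Rps4x, Rpl10, Rpl36a and Rpl39, had a median log2 ratio of -0.86, and all 4 were lower in oocytes. Rps4x was at 465.09 CPM in control oocytes and 807.25 CPM in control granulosa cells, and Rpl10 at 422.04 and 962.25 CPM. Rpl36al, an autosomal copy of Rpl36a that the symbol rule leaves out, was also lower in oocytes, at 121.31 against 218.67 CPM, a log2 ratio of -0.85. Rpl37rt, a copy of the autosomal gene Rpl37 that the rule also leaves out, was higher in oocytes, at 89.27 against 40.63 CPM. The sum of Rpl37 and Rpl37rt was lower, with a log2 ratio of -0.45 (-0.47 to -0.43). Rps27rt, a copy of the autosomal gene Rps27 outside the rule, was lower, at 8.77 against 12.67 CPM. Rpl3l, the paralog of Rpl3 found in striated muscle, had no count in any control oocyte and at least 1 CPM in 1 granulosa library, control cell 8, at 282.47 CPM. Rpl7l1 was at 119.01 CPM in oocytes and 131.33 CPM in granulosa cells, and was absent or under 1 CPM in 4 of 16 control granulosa cells.

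**Figure D2:**
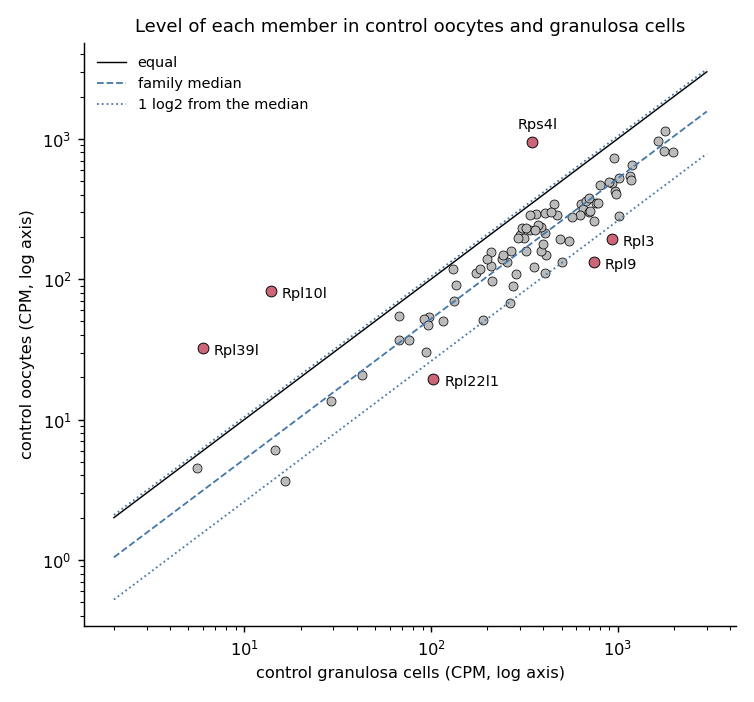
Level of each tested member in control granulosa cells (x axis, CPM, log scale) and control oocytes (y axis, CPM, log scale), as sums over 16 cells each; red points depart from the family median of -0.94 (dashed line). Rps4l, Rpl10l and Rpl39l lie above the line of equal levels, and Rpl3, Rpl9 and Rpl22l1 lie below the lower dotted line. Rpl21 (-2.17) and Rpl27a (-1.97) also lie below it, but not after leaving out each cell in turn, so they did not depart. Rpl3l, with no count in oocytes, is not drawn.

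Genes for making ribosomes went both ways between oocytes and granulosa cells. Among parts of the cytosolic ribosome outside the symbol rule, the scaffold protein Rack1 had a log2 ratio of -0.97, and Fau, made as a fusion with a ubiquitin-like protein, one of -0.04. The 3 stalk proteins, which recruit elongation factors, were lower as well, with Rplp0 at -1.12, Rplp1 at -0.40 and Rplp2 at -0.80. Of 14 elongation factors and other genes with terminal oligopyrimidine mRNAs, 10 were lower and 4 higher, with a median of -0.57. Of 35 ribosome biogenesis genes, 18 were higher and 17 lower, with a median of 0.02. Among them, the export adaptor Nmd3 was at 361.55 CPM in control oocytes and 91.74 CPM in control granulosa cells. Eif6 was at 603.43 and 210.48 CPM. The 78 mitochondrial ribosomal protein genes had a median of 0.03, with 42 higher and 36 lower. Among 10 regulators of terminal oligopyrimidine mRNAs the median was 1.06, with 7 higher in oocytes. These included the growth kinase Mtor (131.66 against 53.32 CPM) and its inhibitor Tsc2 (409.91 against 119.16 CPM).

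The next comparison asked how the family differed in oocytes 6 h after doxorubicin. The summed share was 1.93% to 4.06% of the counts of a doxorubicin oocyte, with a median of 2.60%, beside 2.17% in controls, and the ranges overlapped. The highest share was that of doxorubicin oocyte 9, which also held 3181 CPM of granulosa markers. Most members were slightly higher. The median log2 ratio was 0.23 over 85 members tested, with quartiles of 0.10 and 0.34, beside 0.01 for 11119 genes tested, with quartiles of -0.24 and 0.25. Of the 85, 75 lay above 0 and 10 below, while 51.1% of all genes tested lay above 0. Of the same members, 84 lay within 0.5 of the family median. No member was at least 1 higher than the median of all genes, where 6.27% of all genes were (4.14% with any 1 cell left out), and 1 member, Rpl26, was at least 1 lower, where 2.49% were (1.22% with any 1 cell left out). No member and 0.00% of all genes had groups without overlap. The family median was 0.17 without doxorubicin oocyte 9 and 0.24 in marker-selected cells. It was 0.17 with edgeR TMM factors.

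Large-subunit and small-subunit members each had a median log2 ratio of 0.23. Rack1 and Fau had log2 ratios of 0.27 and 0.12. The 78 mitochondrial ribosomal protein genes had a median of 0.17, with 61 higher and 17 lower. Ribosome biogenesis genes had a median of 0.00, with 18 higher and 17 lower, and included lower values for Rrn3, an initiation factor of RNA polymerase I, at 65.94 and 45.36 CPM. None of the 35 lay at least 1 from 0. Of the 15 ribosomal proteins listed as binding MDM2, the ubiquitin ligase that removes p53, 13 were higher and 2 lower, with a median of 0.18. Rpl5 and Rpl11, which bind MDM2 together with 5S ribosomal RNA, had log2 ratios of 0.34 and 0.23. The 2 lower ones were Rpl26 and Rps25. Of 19 genes mutated in Diamond-Blackfan anaemia, an inherited failure of red cell production, 16 were higher and 3 lower, with a median of 0.19. Both lists lay near the whole family, in which 75 of 85 members were higher, with a median of 0.23.

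In granulosa cells the family differed little after doxorubicin. The summed share was 2.64% to 6.21% of a doxorubicin granulosa cell, with a median of 3.52%, beside 4.24% in controls, and the ranges overlapped. The median log2 ratio was -0.13 over 88 members tested, with quartiles of -0.37 and 0.00, beside -0.03 for 12194 genes tested, with quartiles of -0.76 and 0.76. Of the 88, 23 lay above 0 and 65 below, while 48.9% of all genes tested lay above 0. Of the same members, 75 lay within 0.5 of the family median. No member was at least 1 higher than the median of all genes, where 21.1% of all genes were (10.3% with any 1 cell left out), and 3 were at least 1 lower, where 19.5% were (9.59% with any 1 cell left out). The 3 were Rpl26, Rpl21 and Rpl3l. Rpl26 was 1 of these in every set that left out 1 cell, and the others were not. Higher in oocytes and lower in granulosa cells, with any 1 cell left out too and with counting intervals that did not reach 0, were 36 of 85 members and 12.4% of the 10045 genes tested in both. The opposite held for 0 members and 10.9% of genes. The family median was -0.0117 in marker-selected cells. Median oocyte marker sums differed between the groups (1706 and 9200 CPM), and their part in these values was not tested.

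Rps27l, a paralog with no near-identical row in the table, was higher than its controls in both cell types, and by more than the family median. It is known as a target of p53 and its protein binds MDM2. Control oocytes lay between 62.36 and 215.12 CPM (median 112.83) and doxorubicin oocytes between 87.09 and 339.02 CPM (median 153.78). Control granulosa cells lay between 82.50 and 570.05 CPM (median 149.12) and doxorubicin granulosa cells between 83.15 and 586.92 CPM (median 299.07). The groups overlapped in both cell types, and 2 of 16 doxorubicin oocytes lay above the highest control. The log2 ratios were 0.48 (0.45 to 0.50) in oocytes and 0.78 (0.76 to 0.80) in granulosa cells, and 0.41 and 1.18 in marker-selected cells. Its parent gene Rps27 had log2 ratios of 0.00 and -0.15. Rps27l therefore went from 44.1% to 52.4% of the counts of the pair in oocytes and from 43.1% to 59.1% in granulosa cells. It did not reach a distance of 1 from the family median in either cell type over all cells, so it did not depart. In granulosa cells 2 members reached this distance upward over all cells, Rps4l and Rps3a1. Neither kept it after leaving out each cell in turn, so neither departed. In marker-selected granulosa cells, where the family median was -0.0117, the Rps27l ratio of 1.18 lay more than 1 above that median. All 15 MDM2-binding proteins in granulosa cells had a median of -0.13, with 3 higher, of which Rps27l was the highest and the others were Rpl5 (0.02) and Rps25 (0.02). In the whole family 23 of 88 members were higher there, with a median of -0.13.

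Of the 3 paralogs that were higher in oocytes, Rps4l was similar in oocytes with and without the drug, at 953.27 and 1022 CPM. Doxorubicin oocytes lay between 513.58 and 1405 CPM (median 1009). Rpl10l was at 82.14 and 81.09 CPM, and Rpl39l at 32.44 and 43.47 CPM. In granulosa libraries Rps4l was at 349.02 CPM in controls and 667.19 CPM after doxorubicin, a log2 ratio of 0.93 (0.92 to 0.95). The doxorubicin libraries lay between 104.82 and 1984 CPM (median 556.83) and overlapped with the controls. The highest of them, doxorubicin granulosa cell 1, had the most oocyte markers of its group, 45818 CPM. Across the 13 doxorubicin granulosa libraries Rps4l and the oocyte marker sum had a Spearman correlation of 0.77, and across 16 controls one of 0.39, given as a description of libraries that share a run. The same values were 0.66 and 0.07 for Rpl10l, and 0.27 and 0.18 for Rpl39l. Doxorubicin granulosa cell 1 had 0.93 CPM of Rpl10l and 0.52 CPM of Rpl39l. The part of oocyte transcripts in the Rps4l values was not tested. In marker-selected granulosa cells the log2 ratio of Rps4l was 0.40.

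**Figure D3:**
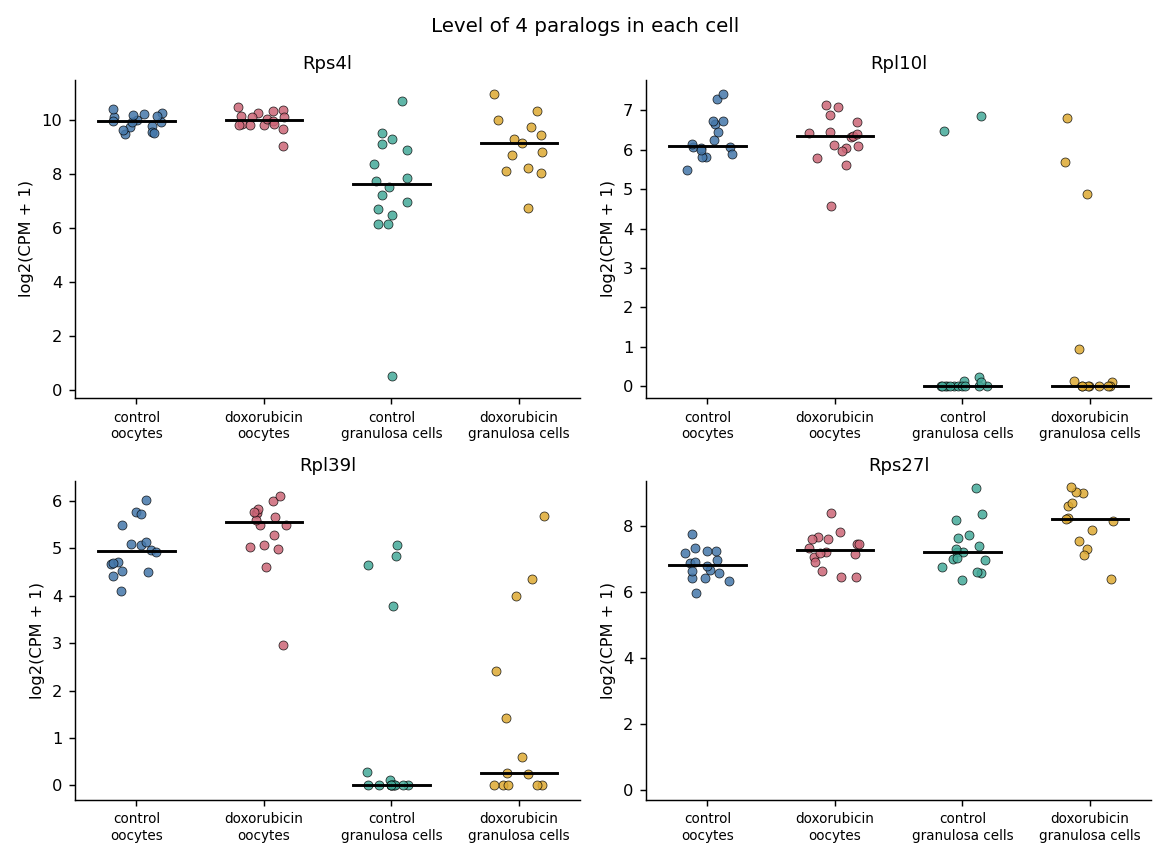
Level of Rps4l, Rpl10l, Rpl39l and Rps27l in each cell (y axis, log2 of CPM plus 1) for the 4 groups; each point is 1 cell and bars are medians. Every oocyte holds Rps4l, Rpl10l and Rpl39l, most granulosa libraries are under 1 CPM of Rpl10l, and Rps27l has medians of 112.83 and 153.78 CPM in oocytes and 149.12 and 299.07 CPM in granulosa cells.

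The one member that departed after doxorubicin with all cells used was Rpl26, and it departed in both cell types. Its protein lies at the exit of the peptide tunnel and is known to bind p53 mRNA. In control oocytes Rpl26 lay between 7.72 and 256.28 CPM (median 160.85), and in doxorubicin oocytes between 7.92 and 327.41 CPM (median 13.11). In control granulosa cells it lay between 37.91 and 498.69 CPM (median 223.92), and in doxorubicin granulosa cells between 4.06 and 122.07 CPM (median 10.06). The ranges overlapped in both cell types, and 11 of 13 doxorubicin granulosa cells lay below the lowest control. The log2 ratios were -1.29 (-1.32 to -1.26) in oocytes and -3.15 (-3.20 to -3.10) in granulosa cells. In oocytes the ratio was -1.77 without doxorubicin oocyte 1 and -0.67 in marker-selected cells, where Rpl26 did not depart. In granulosa cells it was -2.47 in marker-selected cells and -3.74 without doxorubicin cell 16.

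The row of Gm15772, whose sequence was shown beside that of Rpl26, differed in the opposite direction. Its level was 90.69 CPM in oocytes of the control group and 163.95 CPM in those of the drug group, with 101.84 and 230.01 CPM in the matching granulosa groups. The sum of both rows had log2 ratios of -0.12 (-0.13 to -0.10) in oocytes and -0.30 (-0.32 to -0.28) in granulosa cells. The difference in Rpl26 was therefore for the most part a difference in which of these rows held the reads. The share of Rpl26 in the sum lay at separate levels among oocytes. It was 56.8% to 68.1% in 12 control oocytes, 95.3% in control oocyte 10, 81.7% in control oocyte 16, and 14.6% and 7.42% in control oocytes 9 and 12. After doxorubicin it was 99.1% in oocyte 1, 63.2% to 66.2% in oocytes 3, 4 and 6, and 4.53% to 8.0% in the other 12. In control granulosa cells it lay between 22.0% and 96.6%, and in doxorubicin granulosa cells it was 67.9% in cell 16 and at most 13.1% in the other 12.

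**Figure D4:**
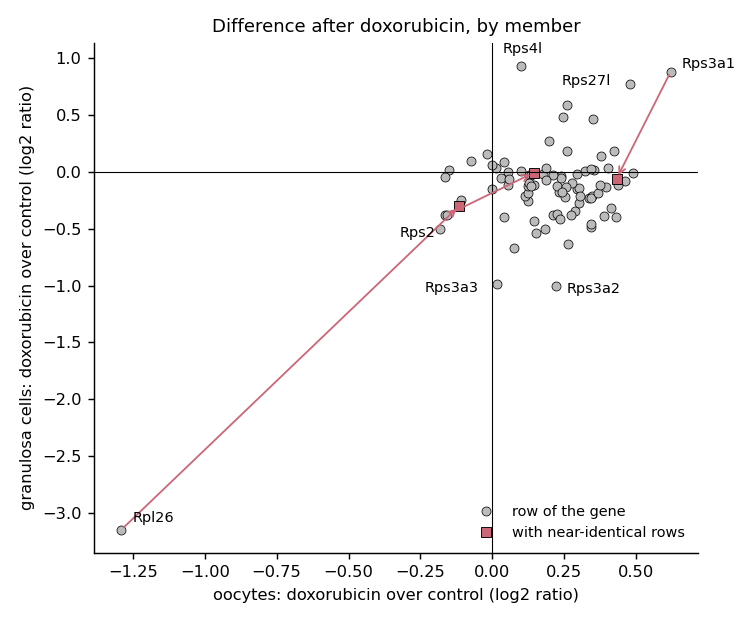
Log2 ratio of doxorubicin over control in oocytes (x axis) and granulosa cells (y axis) for the 85 members tested in both; arrows lead from the row of Rpl26, Rps3a1 and Rps2 to the sum with the near-identical rows named in the text (squares). Rpl26 lies alone at -1.29 and -3.15, and its sum with Gm15772 lies at -0.12 and -0.30.

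For other members, too, the shares of near-identical rows differed between cells. Rps3a1, a small-subunit protein, had log2 ratios of 0.62 in oocytes and 0.88 in granulosa cells, Rps3a2 of 0.22 and -0.9999, and Rps3a3 of 0.01 and -0.99. Their sum had log2 ratios of 0.43 (0.42 to 0.45) and -0.06 (-0.07 to -0.05). The share of Rps3a3 in this sum was under 3% in 7 control oocytes, cells 1 to 7. It was 12.9% and 11.3% in control oocytes 9 and 12, the cells with the low shares of Rpl26, and between 22.9% and 25.9% in the rest. Among doxorubicin oocytes it was under 3% in cells 8, 9 and 15, and between 10.2% and 13.6% in the other 13. For Rps2, a protein near the mRNA entry of the small subunit, and its copies Rps2-ps10 and Rps2-ps13, the row of Rps2 held 25.4% to 31.3% of the sum in control oocytes 1 to 7 and 4.67% to 8.56% in the other 9. It held 0.81% to 1.41% in doxorubicin oocytes 1 to 6, 4.54% to 6.01% in doxorubicin oocytes 8, 9 and 15, and 23.6% to 30.5% in the other 7. Control oocytes 1 to 7 and doxorubicin oocytes 8, 9 and 15 thus stood apart in both, while doxorubicin oocytes 1 to 6 stood apart in Rps2 and not in Rps3a3. The sum of the Rps2 rows had log2 ratios of 0.14 (0.13 to 0.15) and -0.01 (-0.01 to 0.00). CD-1 mice are outbred and the labels tie no cell to an animal. Treatment and animal therefore cannot be told apart in these shares. Which property of the cells goes with the levels was not tested.

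**Figure D5:**
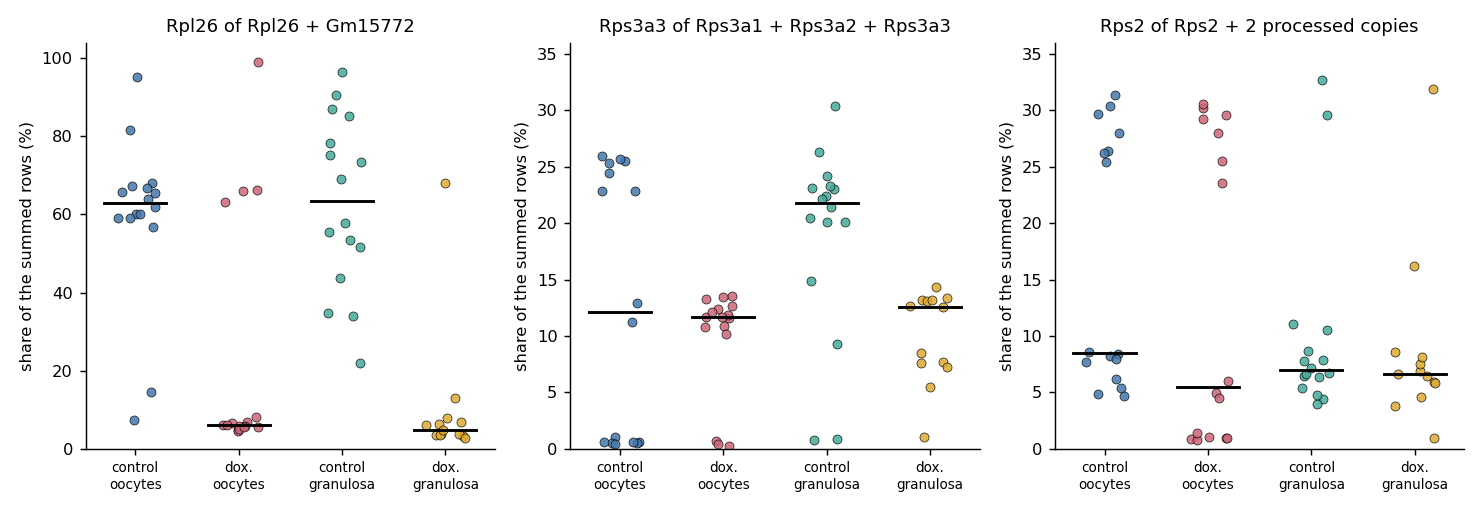
Share of a member's row in the sum of its near-identical rows (y axis, percent) for Rpl26, Rps3a3 and Rps2 in each cell of the 4 groups; each point is 1 cell and bars are medians. Rps3a3 in control oocytes lies at 0.42% to 1.03%, at 11.3% and 12.9%, or at 22.9% to 25.9%, while Rpl26 in control granulosa cells is spread from 22.0% to 96.6%.

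Copies mattered for the level of some members too. At least 95% identity over at least 80% of the coding sequence placed the 89 members and 323 other rows of the table in 84 sets. Of the sets, 73 held several rows and the rest a single member. The 323 other rows held 12.05% of the reads of the sets in control oocytes. Rpl21 was at 3.66 CPM in control oocytes while its 28 near-identical rows held 449.31 CPM, and Rpl29 was at 4.52 CPM while 9 such rows held 129.29 CPM. A low value in these rows is therefore no measure of the gene. With the rows of each set summed, no set departed after doxorubicin in oocytes or granulosa cells, and 6 departed between control oocytes and control granulosa cells. This alternative was chosen after the data were seen. The family medians were then 0.21, -0.12 and -0.93 in the 3 comparisons. The comparison of control cells shares its cells with both comparisons of the drug, so their values are not independent.

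The spread between cells was compared with near-identical rows summed. In control oocytes the coefficient of variation (SD over mean) of the Rps2 row was 0.65 and that of its summed set 0.20. The Rpl26 row had 1.55 in doxorubicin oocytes and its summed set 0.31. Over 79 sets with at least 50 CPM in control oocytes the median was 0.27. The most even set was that of Rps7 (0.15), and the least even were those of Rps28 (0.59) and Rpl38 (0.58). In doxorubicin oocytes the median was 0.24 over 77 sets. In control granulosa cells it was 0.41 over 81 sets, and the least even were Rps4l (1.18) and Rpl7l1 (0.88).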

How the data were processed

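Single-cell libraries were made with a SMART-seq kit, per the labels' protocols. The submitters' processing notes name Partek, Bowtie2, HISAT2, DESeq2 and mm10, without role or order. The authors deposited estimated counts per gene, of which 34.05% of nonzero values were not whole; how reads with several matches were assigned is not given in the sources used here. For doxorubicin oocyte 4 the submitters state that raw reads no longer exist, and its deposited column was used. The dose is written with a unit that is not a dose and is not used here.

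Counts were rounded, summed over the cells of a group and divided by the summed total to give CPM. Intervals of log2 ratios are exact conditional binomial (Clopper-Pearson) intervals. There was no test. Members and lists were chosen with earlier results of these data known. Named genes were the paralog pairs, the departing members, the highest members per length and members of the lists, and Rps3a, Rps2, Rpl21, Rpl29, the genes without overlap and the sets named for their spread were chosen after their values were seen. Lengths are medians of principal GENCODE M21 coding transcripts, or of all transcripts for the 6 annotated pseudogenes. Copies were found with blastn 2.17.0. Alternatives used the mean of cells, the difference of cell medians of log2(CPM + 1), edgeR 4.0.16 TMM factors, DESeq2 1.42.0 size factors, totals without the family, no filter or 50 CPM, and marker filters, and left out each cell. Some members are not reported here by name. The calculation was tested on simulated data, drawn with counting error only and without the step that leaves out each cell. Python 3.11.15 and R 4.3.3 were used.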

Additional observations from a re-analysis of the deposited data

Results flagged for a closer look

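For 22 members the log2 ratio after doxorubicin lay above 0 in oocytes and below 0 in granulosa cells, over all cells, after leaving out each cell in turn and under every alternative, with counting intervals that did not reach 0. Over all cells and after leaving out each cell alone, 36 of 85 members and 12.4% of 10045 genes met this. The share of all genes under every alternative was not computed. Under the same conditions no member lay below 0 in oocytes and above 0 in granulosa cells. The difference between the cell types was not tested, because each group is 1 sample, and oocyte markers differed between the granulosa groups. The values for oocytes and granulosa cells, in that order, follow by subunit for 20 of the 22.

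In the large subunit, the exit-tunnel proteins Rpl23a and Rpl19 had ratios of 0.41 and -0.32, and of 0.30 and -0.14. Those of Rpl9 were 0.43 and -0.39, and those of Rpl24 were 0.35 and -0.21. Rpl27a had 0.34 and -0.48, Rpl13 had 0.34 and -0.23, and Rpl7 had 0.30 and -0.27. Rpl18 had 0.29 and -0.15, Rpl6 had 0.29 and -0.35, and Rpl6l, a near-identical copy of Rpl6, had 0.22 and -0.37. For Rpl11 they were 0.23 and -0.18, for Rpl13a 0.15 and -0.54, for Rpl3 0.13 and -0.26, and for the stalk base protein Rplp0 0.12 and -0.21.

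In the small subunit, Rps6, whose protein is a substrate of S6 kinase, had ratios of 0.37 and -0.19. Rps9 had 0.27 and -0.38, and Rps10 had 0.25 and -0.22. For Rps16 they were 0.24 and -0.42, for Rps3a2 0.22 and -0.9999, and for Rps15 0.15 and -0.11. Rps3a2 is near-identical to Rps3a1, and their sum with Rps3a3 had 0.43 and -0.06.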

How the results depend on the processing

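The family median in oocytes after doxorubicin (0.23) was 0.17 with edgeR TMM factors, 0.20 with DESeq2 size factors, and 0.17 to 0.27 over leaving out each cell. In granulosa cells (-0.13) it was -0.0787 where a library's own markers had to exceed the other type's (own markers required), -0.0117 in marker-selected cells, and -0.20 (without doxorubicin cell 6) to -0.0626 (without control cell 8) over leaving out each cell. Between control cells (-0.94) it was -0.91 as a difference of cell medians, -0.87 with TMM, -0.90 with DESeq2, -0.97 on totals without the family, -0.73 with own markers required, -0.996 in marker-selected cells, and -1.01 to -0.84 over leaving out each cell. The sign of all 3 medians was kept under every alternative run. The count of departing members in oocytes after doxorubicin (1) was 2 with no filter, 0 in marker-selected cells and 0 with near-identical rows summed. In granulosa cells (1) it was 4 with own markers required, 2 in marker-selected cells, 5 as a difference of cell medians and 0 with near-identical rows summed. Between control cells (6) it was 10 as a difference of cell medians. The log2 ratio of Rpl26 in oocytes was -0.67 in marker-selected cells. Ratios of Rpl10l and Rpl39l in granulosa cells after doxorubicin (0.16 and 0.18) ranged from -1.06 (without doxorubicin cell 4) to 1.14 (without control cell 8) and from -0.88 (without doxorubicin cell 6) to 0.66 (without control cell 10). No paired analysis was possible because numbers in the labels name single cells and no result comes from a test. Depth limits rows under 5 CPM, such as Rpl32l, for which no ratio is given.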
